A study of Homo sapiens with 6 samples.

Results

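The genes described here carry folates, and the antifolate methotrexate (MTX), into the cell and its mitochondria and then hold them there. They are 7 of the 19775 genes annotated on the array, taken from a list set by pathway: SLC19A1, SLC46A1, FOLR1, FOLR2, SLC25A32, FPGS and GGH. All probe sets annotated to one of them alone were taken, which gave 18 of the 54613 probe sets of the array. RNA of HT29 cells, a line of human colon adenocarcinoma, was measured on GeneChip arrays in 3 samples resistant to 10 μM MTX and 3 samples sensitive to the drug. The resistant cells came from stepwise selection with MTX and were kept in medium that lacked glycine, hypoxanthine and thymidine, with dialyzed serum, while the sensitive cells grew in Ham's F12 with fetal bovine serum. Medium and resistance therefore cannot be told apart. No source says that the samples of a group came from separate cultures, so a p-value covers only how far these samples vary, and that variation may be technical.

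Folates are vitamins that carry single-carbon units for the synthesis of thymidylate, purines and methionine. They are charged at neutral pH and do not cross membranes freely, so that cells depend on carriers and receptors for their uptake. Inside the cell, a chain of glutamates added by folylpolyglutamate synthetase retains folates and classical antifolates, and γ-glutamyl hydrolase removes that chain. Lower uptake and less polyglutamation are textbook routes to MTX resistance.

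The values are MAS5 signals, a linear intensity, each divided by the median of its array, and 1 on this scale equals that median. A probe set was called dim, and not tested, where its mean scaled signal over the 6 arrays was under 1. Of the 18 probe sets, 13 were tested and 5 were dim. Log2 fold changes (resistant over sensitive cells) with their standard errors (SE) came from limma across 26833 probe sets, and a call needed a Benjamini-Hochberg adjusted p under 0.05. The median signal of the arrays was between 13.3 and 16.9 in resistant cells and between 14.2 and 15.4 in sensitive cells. The signal ratio of 3′ to 5′ control probe sets for ACTB, a measure of RNA integrity, was 1.25 ± 0.0698 in resistant and 1.14 ± 0.0220 in sensitive cells (SD, n = 3 each; two-sided p = 0.1 in an exact permutation test, which 3 against 3 arrays cannot go below), and its part in the results below was not tested. For GAPDH the ratio was 1.02 ± 0.0338 in resistant and 1.01 ± 0.0054 in sensitive cells (exact permutation test, p = 0.4). Of 12 colon epithelial markers, 8 had a scaled signal of at least 1 on all arrays, among them EPCAM, KRT8, KRT18 and KRT20, whereas CDX1 and CDX2 were under 1 on all arrays. Of 9 tested, 6 were lower, 1 was higher and 2 did not pass, against 22.5% lower and 12.4% higher of all tested genes, and the summed level of the 12 was between 1598 and 1798 in resistant and between 2062 and 2274 in sensitive cells. Of 11 measured markers of blood, endothelial, stromal and liver cells, 8 were dim, PTPRC, CDH5 and ALB among them, and the summed level of the 11 was between 17.7 and 20.9 in resistant and between 6.22 and 9.10 in sensitive cells, with COL1A1 higher and CD14 lower. Without COL1A1, which averaged 11.8 in resistant and 0.740 in sensitive cells, the sum of the other 10 was between 6.35 and 8.24 in resistant and between 5.33 and 8.23 in sensitive cells. The part of these markers in the results was not tested.

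The deepest change among the 7 genes was that of SLC19A1, whose signal was about as low as the array median in the resistant cells. The mitochondrial carrier SLC25A32 was 2.02-fold lower, and GGH was moderately higher. SLC46A1 and FPGS did not pass the test, FOLR2 was dim and not tested, and FOLR1 passed it by a narrow margin at 1 of its 2 probe sets. Of the 13 tested probe sets, 7 were lower and 1 was higher, against 19.5% lower, 9.52% higher and 29.0% in either direction among all tested probe sets. The 7 lower ones include 5 that share SLC19A1 as their target, so the probe sets are not independent of each other, and 4 of these 5 passed the filter on dim signals only through the sensitive arrays. Apart from SLC19A1, 2 of 8 tested probe sets were lower and 1 was higher, against the same 19.5% and 9.52%. At the level of genes, taken at the brightest probe set, 3 of the 6 tested genes were lower, 1 was higher and 2 did not pass, against 22.5% lower, 12.4% higher and 34.9% in either direction among all 11835 tested genes. The groups did not overlap at 9 of the 13 probe sets, 7 with resistant cells below and 2 above. Among all tested probe sets this was so for 27.8% below, 14.5% above and 42.3% in either direction. The 9 include the 5 of SLC19A1. Among the 8 others, the groups were apart at 1 probe set each of FOLR1, SLC25A32, GGH and SLC46A1.

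**Figure D1:**
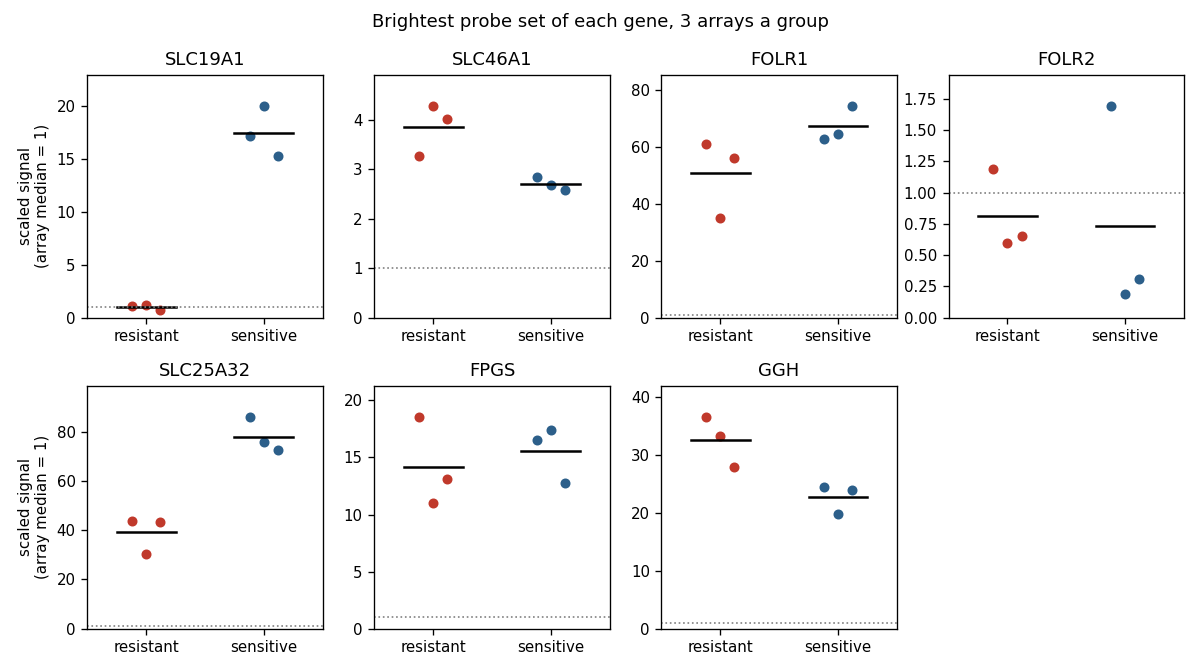
Scaled signal (array median = 1, dotted line) of the brightest probe set of each gene, with a dot for each array, 3 resistant on the left and 3 sensitive on the right, and a bar at the mean. The groups do not overlap for SLC19A1, SLC46A1, FOLR1, SLC25A32 and GGH, and overlap for FOLR2 and FPGS.

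SLC19A1 encodes the reduced folate carrier, the main route by which reduced folates and MTX enter cells at neutral pH. To show what lies upstream of it and of the importer SLC46A1, the RefSeq promoter table (GRCh38.p14) was searched, in which 3 of the 7 genes had entries. SLC19A1 has 4 annotated starts there, and its richest and its poorest window in CpG are given beside the single window of SLC46A1. Each holds the 250 bases before a start, in the direction of transcription. Capitals mark the GC box, GGGCGG or its complement CCGCCC, which is bound by Sp1-type factors, and the E-box CACGTG, bound by USF-type factors, was searched as well. Both strands were searched, and the motifs share no bases in these windows.
SLC19A1, chr21:45542441-45542690, minus strand: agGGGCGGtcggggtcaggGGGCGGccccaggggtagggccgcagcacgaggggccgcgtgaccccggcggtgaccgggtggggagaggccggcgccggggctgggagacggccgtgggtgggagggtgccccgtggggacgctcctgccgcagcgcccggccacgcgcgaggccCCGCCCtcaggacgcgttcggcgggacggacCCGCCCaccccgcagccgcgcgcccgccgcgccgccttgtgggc
SLC19A1, chr21:45563026-45563275, minus strand: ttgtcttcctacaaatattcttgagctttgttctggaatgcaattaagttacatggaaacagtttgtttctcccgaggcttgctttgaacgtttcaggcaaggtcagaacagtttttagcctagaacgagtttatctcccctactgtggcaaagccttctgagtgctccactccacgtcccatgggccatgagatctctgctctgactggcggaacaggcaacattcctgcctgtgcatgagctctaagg
SLC46A1, chr17:28406213-28406462, minus strand: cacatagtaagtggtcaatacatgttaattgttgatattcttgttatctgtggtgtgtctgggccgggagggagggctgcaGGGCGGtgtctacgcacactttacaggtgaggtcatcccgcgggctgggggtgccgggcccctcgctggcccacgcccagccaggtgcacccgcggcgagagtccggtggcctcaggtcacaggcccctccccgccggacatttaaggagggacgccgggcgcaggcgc
The first window holds 4 GC boxes and 38 CpG dinucleotides, a number that 3.28% of all windows reach, against a median of 11. The second holds no GC box and 5 CpG dinucleotides, and the window of SLC46A1 holds 1 GC box and 18. None of the 3 holds the E-box. Among 35116 windows of this length, 42.6% held a GC box and 6.34% an E-box. The probe sets were not assigned to a start, so the signals below do not say which of these windows was in use, and the matches are a description of the letters only.

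At its brightest probe set (211576_s_at) SLC19A1 had scaled signals of 1.14, 1.18 and 0.698 in resistant cells, against 17.1, 20.0 and 15.3 in sensitive cells. Every resistant array lay near the array median and every sensitive array far above it, with no overlap. The log2 fold change was -4.15 (SE 0.22, adjusted p = 4.3e-12 from limma), which is 17.7-fold lower, and only 45 of the 26833 tested probe sets had a deeper fall. SLC19A1 is among the genes that the study itself picked from these arrays, so its direction is not independent evidence.

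All 5 tested probe sets of SLC19A1 were lower in the resistant cells, by different amounts. Probe set 209777_s_at had 1.29, 0.662 and 1.04 in resistant and 4.70, 5.78 and 3.97 in sensitive cells, a log2 fold change of -2.31 (SE 0.30, adjusted p = 3.8e-06 from limma). Probe set 1555952_at had 0.338, 0.294 and 0.266 in resistant and 4.13, 2.92 and 2.18 in sensitive cells, a log2 fold change of -3.32 (SE 0.53, adjusted p = 5.6e-05). In none of the 5 did the groups overlap, as was the case in 27.8% of all tested probe sets with resistant cells below sensitive ones. Probe sets 1555953_at and 209776_s_at were at -3.54 and -2.82, with means of 0.236 and 0.443 in resistant cells and of 2.58 and 2.88 in sensitive cells. All but 211576_s_at had a resistant mean under 1 (0.995 at 209777_s_at) and passed the filter on dim signals only through the sensitive arrays, so their calls give no support beyond that of 211576_s_at, whose own resistant mean was 1.01. Sensitive replicate 3 had the lowest sensitive signal in all 5. The spread of these values, from -4.15 to -2.31, rests on resistant signals with no firm level. With all signals under the array median set to 1, the 5 probe sets lay between -3.98 and -1.35. All kept an adjusted p under 0.05 in limma, but this adds no support. At 1555952_at, 209776_s_at and 1555953_at every resistant array was under 1, so this setting made their resistant values identical.

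Of the dim probe sets of SLC19A1, 1 moved like the others and 1 did not. Probe set 209775_x_at, of a kind whose probes may also match other sequences, had 0.0526, 0.188 and 0.112 in resistant and 0.831, 1.53 and 1.10 in sensitive cells, with no overlap. Without the filter on dim signals it was at -3.44 (SE 0.80, adjusted p = 0.012 from limma over 54613 probe sets). Probe set 229639_s_at stayed under the array median on every array, with 0.0602, 0.444 and 0.0473 in resistant and 0.570, 0.0467 and 0.0455 in sensitive cells, and it sets no level for the gene. A two-group test that let the variances differ, which called far fewer probe sets of the whole array, ended the call of every SLC19A1 probe set, with an adjusted p of 0.056 for the brightest and up to 0.13 for the other 4. Leaving out any of the arrays kept the brightest between -4.28 and -3.90.

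**Figure D2:**
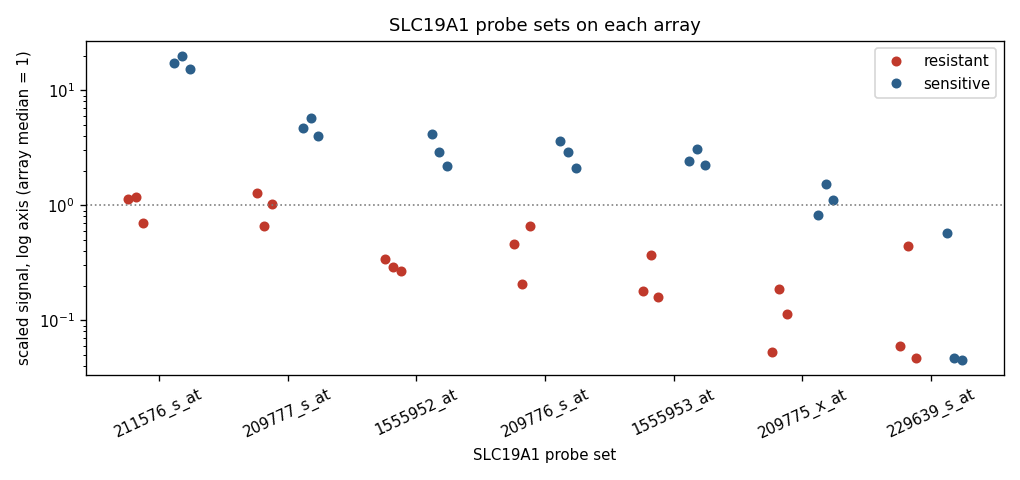
Scaled signal on a log axis (array median = 1, dotted line) of the 7 probe sets annotated to SLC19A1, with a dot for each of 3 resistant arrays (red, left of each pair) and 3 sensitive arrays (blue, right). Resistant dots lie under all sensitive dots in the first 6 probe sets, and the groups overlap in 229639_s_at, where no array reaches the median.

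The other importer of the plasma membrane, SLC46A1, is the proton-coupled folate transporter, which absorbs folates in the upper intestine and works best at acidic pH. Its brightest probe set (1558703_at) had scaled signals of 3.28, 4.28 and 4.03 in resistant and 2.85, 2.69 and 2.59 in sensitive cells. Every resistant array was above every sensitive array here, as in 14.5% of all tested probe sets, but the difference did not pass the test at a log2 fold change of 0.50 (SE 0.22, adjusted p = 0.086 from limma). It did pass without resistant replicate 1, the lowest of its group, at 0.62 (adjusted p = 0.041), and after scaling to the probe sets past the filter, at 0.60 (adjusted p = 0.048). Its other tested probe sets did not pass and differed in sign, with 1552279_a_at at 0.47 (SE 0.24, adjusted p = 0.15) and 1552278_a_at at -0.11 (SE 0.25, adjusted p = 0.80). At 1552278_a_at the arrays were between 2.14 and 2.38 in resistant and between 2.12 and 2.72 in sensitive cells. The fourth, 233531_at, was dim, with no array at the median.

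The signal of SLC19A1 relative to SLC46A1 on the same array is left as it is by dividing an array by a single factor. It was 0.349, 0.275 and 0.173 in resistant cells, against 6.02, 7.43 and 5.89 in sensitive cells. The groups were far apart, by -4.65 on the log2 scale and by -4.64 after quantile normalization (two-sided p = 0.1 by exact permutation, the smallest possible). A level of one probe set cannot be set against that of another, so the ratio shows only that both signals did not move by the same factor. SLC46A1 passed at none of its tested probe sets, so the gap largely repeats the fall of SLC19A1 given above.

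FOLR1 and FOLR2 encode folate receptors α and β, proteins held in the membrane by a lipid anchor that bind folic acid tightly and take it up by endocytosis. FOLR1 is known from some epithelia and carcinomas, and FOLR2 from cells of the myeloid lineage. At its brighter probe set (211074_at) FOLR1 had scaled signals of 61.0, 34.9 and 55.9 in resistant and 62.6, 64.6 and 74.1 in sensitive cells. The groups did not overlap, but only resistant replicate 2 lay well apart. The log2 fold change was -0.44 (SE 0.17, adjusted p = 0.048 from limma), and without resistant replicate 2 it was -0.20 (adjusted p = 0.29). The call was ended by 10 of 17 alternatives, quantile normalization among them, where it was -0.26 (adjusted p = 0.18). The dimmer probe set (204437_s_at) had 2.78, 3.16 and 2.05 in resistant and 3.92, 2.31 and 3.62 in sensitive cells, overlapped between the groups and did not pass at -0.29 (SE 0.26, adjusted p = 0.43).

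FOLR2 was dim at both of its probe sets. At 204829_s_at the scaled signals were 1.19, 0.600 and 0.657 in resistant and 1.69, 0.193 and 0.312 in sensitive cells, and the sensitive arrays alone spanned both ends of the range. At 229619_at the signals were 1.05, 0.212 and 0.669 in resistant and 0.880, 0.167 and 0.208 in sensitive cells, again with overlap. Replicate 1 of both groups was the highest of its group at each probe set. Without the filter on dim signals they were at 0.73 (SE 0.79, adjusted p = 0.67) and 0.76 (SE 0.88, adjusted p = 0.70 from limma), so no difference in FOLR2 was detectable at these signals.

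SLC25A32 encodes the carrier that brings folates through the inner mitochondrial membrane, where serine and glycine are turned into single-carbon units. It is read by 1 probe set (221020_s_at), with scaled signals of 43.7, 30.3 and 43.2 in resistant cells, against 85.8, 75.6 and 72.4 in sensitive cells. Both groups were well above the array median and did not overlap. The log2 fold change was -1.01 (SE 0.15, adjusted p = 1.9e-05 from limma), which is 2.02-fold lower, and 5.68% of tested probe sets were as low or lower. Resistant replicate 2 was the lowest array here as well, and without it the log2 fold change was -0.84, still past the test. The call was lost in tests of the gene's own spread, with pooled variances (adjusted p = 0.052) or separate ones (adjusted p = 0.13). The fall of SLC25A32 was under the 3-fold threshold that the study's methods set. In this group of genes only the 5 tested probe sets of SLC19A1 reached it, all lower. Among all tested probe sets 1.9% were lower and 1.56% higher at that size. These 5 share SLC19A1 as their target, and 4 of them passed the filter on dim signals only through the sensitive arrays. Their count is therefore not a result about the group.

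FPGS, folylpolyglutamate synthetase, adds glutamates to folates and to MTX and so keeps them in the cell. Its probe set (202945_at) had scaled signals of 18.5, 11.0 and 13.1 in resistant and 16.6, 17.5 and 12.8 in sensitive cells. The groups overlapped over most of their range, and the log2 fold change of -0.16 did not pass the test (SE 0.19, adjusted p = 0.58 from limma). Its sign was not settled, since it was 0.01 both after quantile normalization (adjusted p = 0.98) and without resistant replicate 2 (adjusted p = 0.98).

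GGH encodes γ-glutamyl hydrolase, which takes glutamates off in the lysosome. Its probe set (203560_at) had scaled signals of 36.4, 33.2 and 27.9 in resistant cells, against 24.4, 19.8 and 23.9 in sensitive cells. All resistant arrays were above all sensitive ones. The log2 fold change was 0.52 (SE 0.16, adjusted p = 0.015 from limma), which is 1.43-fold higher, and after quantile normalization it was 0.70. The call was lost without sensitive replicate 2, at 0.42 (adjusted p = 0.12), and with 3 other tests (limma without a trend and both two-group tests, adjusted p between 0.073 and 0.15).

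The signal of FPGS relative to GGH on the same array sets the gene that adds glutamates against the one that removes them. It was 0.509, 0.332 and 0.469 in resistant cells, against 0.679, 0.882 and 0.536 in sensitive cells. The highest resistant array, at 0.509, lay just under the lowest sensitive array, at 0.536. The difference was -0.67 on the log2 scale, 1.59-fold lower in resistant cells (two-sided p = 0.1 by exact permutation, the smallest possible). It was -0.69 after quantile normalization and between -0.85 and -0.49 with any array left out. As FPGS did not pass the test, the ratio mostly repeats the change of GGH. Levels of different probe sets cannot be set against each other, and enzyme activity was not measured.

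**Figure D3:**
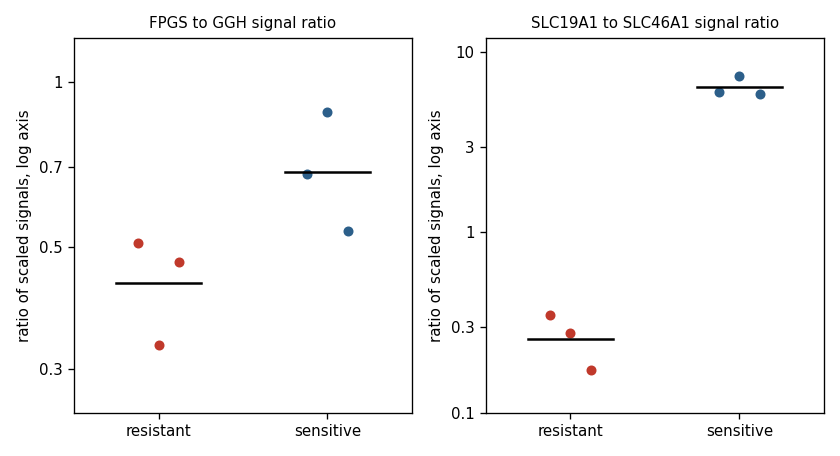
Ratio of the scaled signals of FPGS to GGH (left) and of SLC19A1 to SLC46A1 (right) on each array, on log axes, with 3 resistant arrays left of 3 sensitive arrays and bars at the mean of the log values. Resistant arrays are under the sensitive arrays in both panels, by a narrow gap for FPGS to GGH (0.509 against 0.536) and a wide one for SLC19A1 to SLC46A1 (0.349 against 5.89).

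**Figure D4:**
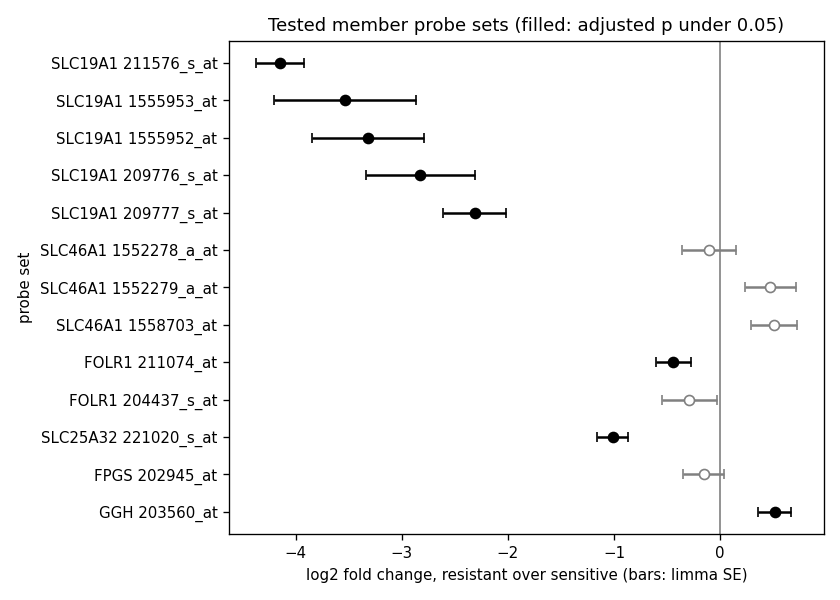
Difference in log2 signal, 3 resistant minus 3 sensitive arrays, of the 13 tested probe sets, with bars for the SE from limma and filled symbols for an adjusted p under 0.05. The 5 probe sets of SLC19A1 lie between -4.15 and -2.31, and the other 8 between -1.01 (SLC25A32) and 0.52 (GGH).

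The 6 nearest tested genes of each gene on its chromosome are given as a description of position only. Counts among them stand against 22.5% lower and 12.4% higher of all tested genes. Around SLC19A1 on chromosome 21, none of the 6 was called lower and 2 were higher. On one side COL18A1, a collagen gene, was higher at 1.10 (SE 0.20), LINC00205 was higher at 0.77 (SE 0.19), and POFUT2 was at -0.02. On the other side the collagen genes COL6A1 and COL6A2 were at 0.17 and -0.28 and the folate enzyme gene FTCD, with a resistant mean under the array median, was at -1.18, none past the test. The nearest tested genes of SLC25A32, by contrast, were all lower. AZIN1 was at -0.46, ATP6V1C1, a subunit of the vacuolar proton pump, at -1.14, and the Wnt receptor gene FZD6 at -0.55. DCAF13 was at -0.76, LRP12 at -3.70 (SE 1.05) and OXR1 at -0.55. The SE of the other neighbours of SLC25A32 was between 0.13 and 0.17, so the size of the fall of LRP12 is only loosely set. This is 6 of 6 against 22.5% of all tested genes, but adjacent genes need not change independently, and the cause was not tested. GGH lies on the same chromosome 8, where 4 of its 6 nearest tested genes were lower (RAB2A, CHD7, YTHDF3 and ARMC1, between -1.16 and -0.55), YTHDF3-DT did not pass, and ASPH was higher at 0.40. Around SLC46A1, PIGS and ALDOC were higher at 0.50 and 1.04 and the other 4 did not pass. Around FOLR1 and FOLR2, which lie side by side, CLPB was lower at -0.68 and the other 5 did not pass. Around FPGS, ENG, which encodes endoglin, and AK1 were lower at -2.84 and -1.03 and the other 4 did not pass. Gene order was taken from the RefSeq table of GRCh38.p14, and copy number was not measured by these files. The study determined the copy number of SLC19A1 separately, by real-time PCR, which was not used here.

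**Figure D5:**
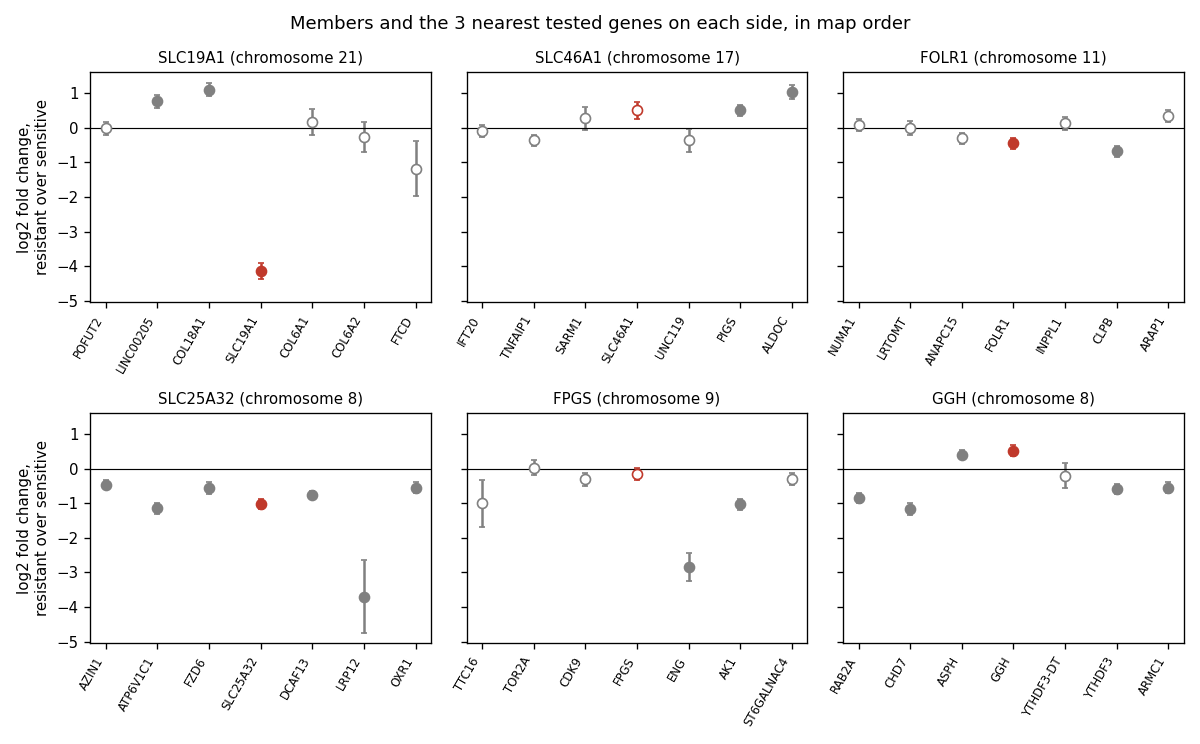
Difference in log2 signal (resistant minus sensitive) of each tested gene of the group, in red, and of the 3 nearest tested genes on each side in map order, in grey, with bars for the SE from limma and open symbols for genes that did not pass the test. SLC19A1 at -4.15 stands apart from neighbours between -1.18 and 1.10, while SLC25A32 at -1.01 lies among 6 neighbours that were all lower.

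The genes whose values over the 6 arrays were most like those of SLC19A1 were sought among 11834 others by the root mean square difference of log2 values, each centred on the mean of its sensitive arrays. The nearest was CMPK2, a nucleotide kinase of mitochondria, with scaled signals of 1.10, 1.03 and 0.716 in resistant and 16.4, 16.9 and 14.7 in sensitive cells and a difference of 0.10. The growth factor gene FGF19 and the annexin gene ANXA13 followed, with differences of 0.27 and 0.38. The 3 genes lie on chromosomes 2, 11 and 8 and were at -4.10, -3.92 and -3.86. With 2 groups of 3 arrays this measure reflects little more than a fall of the same size.

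Close relatives of these carriers and receptors were taken as a list of their own. Of 7 measured paralogues, 3 were dim (SLC19A3, SLC46A2 and FOLR3), 1 of 4 tested was lower and none was higher, against 22.5% and 12.4% of all genes. The lower one was SLC25A36, a mitochondrial carrier of pyrimidine nucleotides, at -0.74 (SE 0.16, adjusted p = 0.00033 from limma), and it was ended by 1 of 18 alternatives. SLC19A2, which carries thiamine and is the paralogue of SLC19A1, had scaled signals averaging 22.8 in resistant and 26.7 in sensitive cells and did not pass at -0.24 (SE 0.16, adjusted p = 0.26). Of 8 other uptake routes of folates or MTX, 6 were dim, among them LRP2 and CUBN, endocytic receptors of the kidney. The organic anion carrier SLCO1B3 was lower at -0.56 (SE 0.18, adjusted p = 0.013), a call that 6 of 18 alternatives ended, and SLCO2B1 did not pass.

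Export pumps that accept folates and MTX changed in both directions. Of 6 tested, 2 were higher, 2 were lower and 2 did not pass, against 12.4% higher and 22.5% lower of all tested genes, and the median log2 fold change was 0.12 against -0.10 for all genes. ABCC2, which moves organic anions over the apical membrane, had 2.31, 1.56 and 4.62 in resistant and 0.0704, 0.400 and 0.0390 in sensitive cells. Its log2 fold change was 4.63 (SE 1.06, adjusted p = 0.00069 from limma), with sensitive signals far under the array median, and it passed the filter only through the resistant arrays. With signals under the median set to 1 it was 1.35, and 3 of 17 alternatives ended the call, among them leaving out resistant replicate 3 (4.20, adjusted p = 0.070). ABCC5 rose by 0.52 (adjusted p = 0.038), a call that 9 of 18 alternatives ended. ABCG2 was lower at -1.23 (SE 0.17) and ABCC4 at -0.89 (SE 0.15), and ABCC4 passed under all 18 alternatives.

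The enzymes that use the folates were fixed as a list of 22 genes, of which 16 were tested, 3 were dim and 3 were not analysed here. Of the 16, 3 were higher, 5 were lower and 8 did not pass, against 12.4% higher and 22.5% lower of all tested genes, and the median log2 fold change was -0.05 against -0.10. The lower ones were MTHFD1, the cytosolic enzyme that interconverts folate forms, at -0.61 (SE 0.13), the purine synthesis enzymes GART at -0.60 (SE 0.15) and ATIC at -0.46 (SE 0.12), MTFMT, which formylates the initiator tRNA of mitochondria, at -0.59 (SE 0.17), and MTHFD2L at -0.55 (SE 0.17). MTRR, which keeps methionine synthase active, was higher at 0.47 (SE 0.14), and the mitochondrial enzyme gene MTHFD2 at 0.28 (SE 0.11, adjusted p = 0.046 from limma). Of 18 alternatives, 9 ended the call of MTHFD2, 6 that of MTHFD2L and 3 that of ATIC. The calls of MTHFD1, GART and MTFMT were each ended by 2, and that of MTRR by 1. A gene was also read as the average of all its probe sets, weighed equally and with no filter on dim ones. Of the 16 signs, 5 then turned, none past the test, and the part of dim probe sets in this was not tested. MTHFD1 was then at 0.54, MTHFD2L at 0.26 and MTHFD2 at -0.03, and MTR and FTCD, which had not passed before, were at 0.29 and 0.20. The third higher gene is not reported here.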

How the data were processed

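RNA of 3 resistant and 3 sensitive HT29 samples was hybridized to Affymetrix HG U133 PLUS 2.0 arrays. Values deposited by the authors are MAS5 intensities on a linear scale. Version and scaling target of MAS5 are not given in the sources used here. Per the study's methods, later steps then divide by the array median and by the median of the sensitive samples and apply a t-test with Benjamini-Hochberg adjustment. Here each signal was divided by the array median, 0.01 was the floor, and limma 3.58.1 in R 4.3.3 fitted the log2 values (eBayes, trend on). Of 54613 probe sets (62 controls left out), 26833 whose scaled signal averaged 1 or more were tested. Single ratios were tested by exact permutation (scipy 1.17.1), and figures were drawn with matplotlib 3.10.9. A platform annotation gave 41091 probe sets 1 gene, and 41037 symbols were updated through Entrez identifiers. Gene lists and neighbours use the brightest probe set of a gene (11835 genes), and their SE and adjusted p come from a fit at that level. Named were all 7 genes with every probe set, up to 4 called members of each other list with the largest change, the 3 nearest tested genes on each side, and the 3 genes most like SLC19A1. MTHFD2L, ATIC, MTRR, MTHFD2, COL1A1 and CD14, the markers and other list members named were added after their values were seen. The genes and lists were chosen with earlier results of these data known. The procedure was tested on simulated data of 26833 probe sets, of which 50 were changed 2-fold, 100 3-fold and 50 8-fold. It recovered 30% of the 2-fold, 65% of the 3-fold and 82% of the 8-fold changes. Far fewer probe sets differed there than the 29.0% called in the data, which makes the adjusted threshold stricter. These shares therefore do not measure recovery in the data. Smaller changes were not simulated. A difference that did not pass the test is therefore not shown to be absent. Alternatives covered array scaling, the floor, the filter, the test, a replicate block, the probe set of a gene, the fold threshold, the mean used for folds and each array left out. Detection calls and scan batches were not analysed here, and the number of arrays limits the precision. Some genes are not reported here.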

Additional observations from a re-analysis of the deposited data

How the results depend on the processing

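For the 13 tested probe sets, direction and side of the threshold were kept in 192 of 218 tested checks under the alternatives (13 more, with the ratio of arithmetic means, had no test), calls were lost in 22 and gained in 2, and the sign of FPGS turned in 2 (0.0069 after quantile normalization and 0.0084 without resistant replicate 2, within -0.37 to 0.0084 with arrays left out). Division by the array median left the tested probe sets with a median log2 change of -0.12, against -0.02 after quantile normalization. Over all probe sets 2554 were higher and 5237 lower. Higher counts were 4189 after quantile normalization (4324 lower), 3878 with the median of probe sets past the filter (4668 lower), 826 with equal variances (1879 lower) and 81 with unequal variances (136 lower), and 3366 were lower in limma without trend. With arrays left out, 1917 to 2513 were higher and 3774 to 6498 lower.

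Of the member probe sets (1 higher, 7 lower), 2 were higher with the median of probe sets past the filter, 0 in limma without trend and in both two-group tests, and 0 at 3-fold. Lower ones were 4 with equal variances, 0 with unequal variances and 4 with the filter at 2, which removes 3 of SLC19A1. With arrays left out 0 to 2 were higher. Of member genes (1 higher, 3 lower), 2 were higher after quantile normalization and with the median of probe sets past the filter, 0 in both two-group tests, and 1 was lower with unequal variances, with 0 to 2 higher with arrays left out. Here 0 counts calls after adjustment, and at an unadjusted p under 0.05 the main limma fit gave 2 higher and 7 lower member probe sets.

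Of the folate enzymes (3 higher, 5 lower), 6 were higher after quantile normalization and with the median of probe sets past the filter, 5 with the replicate block and 0 with unequal variances, and 3 were lower in limma without trend, 2 with equal variances, 0 with unequal variances and 2 with probe sets averaged by gene. Of the exporters (2 higher, 2 lower), 1 was higher without the filter, with the filter at 2, in limma without trend and with probe sets averaged by gene, 0 in both two-group tests, and 1 was lower with unequal variances, with 1 to 2 higher with arrays left out. Of the paralogues (1 lower), 0 were lower with unequal variances and 1 to 3 with arrays left out. Of the other uptake routes (1 lower), 0 were lower in limma without trend and in both two-group tests, and 0 to 1 with arrays left out. The causes were not tested. Arrays share replicate numbers but only by label. Deviations of same-numbered arrays correlated at 0.14, 0.01 and 0.08, and not every array matched its own number best. The replicate block gave 3076 higher and 6400 lower probe sets and, of member probe sets, 1 higher and 7 lower.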
